A study of Canis lupus familiaris with 124 samples.

Results

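FOLH1, PSCA, AMACR, HOXB13 and GOLM1 are 5 genes that are used as markers of prostate cancer in men. They were chosen by name from the list of prostate cancer genes that the study examined, and were found by their Ensembl identifiers among the 32183 genes of the deposited tables. The question addressed here was how far their levels set apart tumors of the canine prostate from tumors of the urinary bladder, and prostate adenocarcinoma (PAC) from transitional cell carcinoma (TCC), in 8 cell lines and 9 original tissues.

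FOLH1 (ENSCAFG00000024888) encodes prostate-specific membrane antigen, a surface enzyme that removes glutamate from folates and peptides and is a target of imaging agents in men. PSCA (ENSCAFG00000032433), prostate stem cell antigen, is a small protein held to the cell surface by a lipid anchor and is also made by urothelium. AMACR (ENSCAFG00000018831) is a racemase that prepares branched-chain fatty acids for oxidation. HOXB13 (ENSCAFG00000016870) is a homeobox transcription factor of the hindgut and urogenital region that is active in the human prostate. GOLM1 (ENSCAFG00000001350) is a membrane protein of the Golgi apparatus, part of which is released from the cell.

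RNA sequencing covered 31 libraries from 9 dogs, and every group was an untreated tumor or a culture derived from one. Dog 2, a male German Rough-haired Pointer of 6 years, gave the PAC tissue P2 and the cell line Adcarc0846, and dog 3, a neutered male mixed breed of 11 years, gave the PAC cell line Adcarc1508. Dog 4, a neutered male Dobermann of 6 years, gave the cell line Adcarc1511.1 from the primary PAC, the cell lines Metadcarc1511.2 and Metadcarc1511.3 from lymph node metastases, and the metastasis tissues Ln4.2 and Ln4.3. Dog 5, a neutered male Pitbull Terrier of 10 years, gave the cell line TCC0840, whose diagnosis rested on the cytology of a needle aspirate. Dog 6, a neutered male Bolonka Zwetna of 9 years, gave the prostate TCC tissue P6.1, the lymph node metastasis Ln6.2 and the cell line TCC1509. The bladder TCC tissues came from dog 7 (B7, Labrador of 10 years, also the source of the cell line TCC1506), dog 8 (B8, Cairn Terrier of 11 years), dog 9 (B9, neutered Miniature Pinscher of 8 years) and dog 10 (B10, German Shepherd of 8 years). These 4 dogs were female and all others were male, so that organ and sex cannot be told apart. In the tests of tissues, dog 4 entered with lymph node metastases and every other dog with a primary tumor. The part of the site in differences by histology or organ was not tested. The 22 cell line libraries were 2 or 3 repeats of 1 culture per line, taken between passage 68 and passage 448, and each tissue had 1 library. Libraries of a line were of different passages, except that 2 libraries of TCC1509 were both of passage 85.

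Levels are given as CPM (expected counts relative to the library total after TMM scaling) and, where genes are set against each other, as TPM (transcript share), which also accounts for gene length. Cell line libraries held between 15355798 and 19935282 counts and tissues between 11920463 and 18086895. A count of 3, used here as the floor, stood for 0.137 to 0.233 CPM, and intervals and floors cover counting error only. Dogs were the replicates of comparisons between groups, and a gene was called at an adjusted p of at most 0.01 with a fold of at least 2 in edgeR's quasi-likelihood test. In these bulk samples, fewer cells of a type and less RNA per cell cannot be told apart.

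The tissues differed widely in their makeup. EPCAM, an epithelial adhesion molecule, was at 19.5 CPM in P2 and 13.3 CPM in Ln6.2, against 215 to 1945 CPM in the other 7 tissues. The summed level of 8 fibroblast and muscle markers with an identifier, of 10 on the list, was 78350 CPM in P2 and 40910 CPM in Ln6.2. It was between 6840 and 78350 CPM in the 3 PAC tissues, between 487 and 3632 CPM in the 5 primary TCC tissues, and at most 455 CPM in the cell lines. The 3 identified leukocyte markers, of 6, summed to 150 to 472 CPM in PAC tissues, 13.1 to 97.1 CPM in primary TCC tissues and at most 1.11 CPM in the cell lines. None of the 8 urothelial markers had an identifier, so that the urothelial label of the TCC samples was not checked. KLK2, a secreted protease of the prostate, was listed at 0 in all 17 samples.

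FOLH1 had the widest range of the markers in the cell lines. Adcarc1511.1 had 292, 93.4 and 137 CPM at passages 88, 94 and 95. TCC0840 had 34.3 and 69.3 CPM, and TCC1506 had 67.1, 40.1 and 42.0 CPM. The highest line was therefore from PAC, while the following pair was from TCC, of which only TCC1506 was from the bladder. Metadcarc1511.2 had 3.85, 10.4 and 7.63 CPM, Adcarc0846 had 6.52 and 6.89 CPM, and Adcarc1508 had 5.33, 2.25 and 4.37 CPM. Metadcarc1511.3 had 3, 0 and 3 counts, and TCC1509 had 0, 0 and 1, all at or under the floor. TCC0840 and TCC1506 overlapped and did not differ beyond their spread (edgeR adjusted p = 0.975), nor did Metadcarc1511.2 and Adcarc0846 (adjusted p = 0.878). Libraries of Adcarc0846 and Adcarc1508 did not overlap, but their difference was not called (edgeR adjusted p = 0.318).

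The 3 lines of dog 4 differed in FOLH1 by steps larger than the spread of their libraries. Adcarc1511.1 from the primary tumor was above Metadcarc1511.2 by a log2 fold change of 4.60 (SE 0.51, edgeR adjusted p = 3.99e-06), in a comparison in which 6.83% of 13916 genes were called. Metadcarc1511.2 was in turn above Metadcarc1511.3 (5.92, SE 0.71, edgeR adjusted p = 3.01e-05), where 1.88% of genes were called. The lymph node tissues of the same dog were ordered alike, with 61.9 CPM in Ln4.2 and 3.44 CPM in Ln4.3. Each tissue was a single library, and libraries of 1 line are repeats of 1 culture, so these p-values measure the spread between such repeats.

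In tissues, FOLH1 was at 42.5 CPM in P2, 17.7 CPM in P6.1 and 13.6 CPM in Ln6.2. The bladder tissues had 164 CPM in B8, 90.6 CPM in B9, 71.0 CPM in B10 and 13.6 CPM in B7. The 3 highest levels were thus all from bladder tumors. B7 was below all 3 prostate dogs (42.5, 32.1 and 17.7 CPM), and only the metastases Ln6.2 (13.6 CPM) and Ln4.3 (3.44 CPM) were as low. Over dogs, the log2 fold change of prostate against bladder was -1.58 (SE 0.73, edgeR adjusted p = 0.272), with a 95% interval from -3.26 to 0.09, and was not called. The difference in mean log2(CPM + 1) was -1.07, and an exact two-sided permutation test over 3 and 4 dogs gave p = 0.343, where the smallest p possible is 0.0571. EPCAM was also highest in B8, B9 and B10, between 1496 and 1945 CPM. The other identified epithelial markers ordered the tissues otherwise. CLDN7 was highest in Ln4.3 (170 CPM) and B7 (143 CPM), and TP63 in B7 (170 CPM). The part of epithelial cells in the FOLH1 levels was not tested.

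PSCA was nearly absent from the cell lines except TCC0840. TCC0840, a prostate line labelled TCC, had 26.9 and 54.0 CPM at passages 350 and 352. The other 20 libraries lay between 0 and 1.62 CPM, and none of their lines stood apart from its neighbour in the order of levels. Metadcarc1511.2 was the next line, with 1.62, 0.624 and 1.26 CPM. TCC1506, the bladder line, had the lowest level, with 3, 1 and 0 counts, and TCC0840 was above it by a log2 fold change of 8.89 (SE 0.72, edgeR adjusted p = 1.93e-08), where 24.9% of 13916 genes were called.

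PSCA was above 9 CPM in 7 of the 9 tissues. B9 had 1045 CPM, P6.1 had 91.1 CPM, Ln4.3 had 64.8 CPM and B10 had 56.2 CPM. B8 followed with 49.4 CPM, Ln4.2 with 42.3 CPM and B7 with 9.92 CPM. Prostate and bladder tumors were mixed throughout this order, and the PAC metastases lay within the range of TCC. Ln6.2 had 3 counts and P2 had 0, which allows up to 0.233 CPM, and both were the tissues with the least EPCAM. Between P6.1 and its metastasis Ln6.2, both of dog 6, EPCAM went from 397 to 13.3 CPM, and its part in the PSCA levels was not tested. In these tests of tissues, PSCA passed the count filter through the bladder or TCC side alone, since P2 had 0 counts. PSCA was not called by organ (log2 fold change -2.63, SE 2.03, edgeR adjusted p = 0.498) or histology of tissues (-3.39, SE 2.44, adjusted p = 0.485). By histology it was -1.08 without dog 9, the source of B9, and -14.93 without dog 4, where P2 with 0 counts is the only PAC tissue and the value depends on the fit's prior count. The 95% interval of the organ difference reached from -7.29 to 2.03.

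AMACR, the racemase, was close to the detection limit in nearly every sample. The cell line libraries lay between 0 and 0.865 CPM, with 4 to 46 counts summed over a line. Adcarc1508 had 0.865, 0.837 and 0.565 CPM and Adcarc1511.1 had 0.543, 0.671 and 0.774 CPM, the highest 2 lines. All neighbours in the order of lines overlapped. The tissues lay between 0.202 and 1.15 CPM, except B7 with 2.94 CPM from 48 counts. AMACR failed the count filter in both comparisons of cell lines by origin and was not tested there. In tissues the difference between PAC and TCC was a log2 fold change of -0.78 (SE 1.11, edgeR adjusted p = 0.729), and that between prostate and bladder -0.60 (SE 0.95, adjusted p = 0.756). No difference of AMACR by origin was called in the tissues, and the part of the low counts in this was not tested.

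HOXB13 was above the floor in all 8 lines and low in 1 of them. Adcarc1508 had 53.6, 51.7 and 58.7 CPM, Metadcarc1511.3 had 23.1, 24.3 and 18.8 CPM, and TCC1506 had 19.8, 17.9 and 23.3 CPM. TCC1509 had 21.8, 20.8 and 16.9 CPM, TCC0840 had 12.1 and 14.2 CPM, Metadcarc1511.2 had 12.3 ± 1.54 CPM (SD, n = 3), and Adcarc1511.1 had 11.8, 10.9 and 10.1 CPM. Adcarc0846 was the lowest, with 0.896 ± 0.577 CPM (SD, n = 2). The PAC lines thus held both ends of the order, and the bladder line TCC1506 lay within the range of the prostate lines.

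Adcarc1508 exceeded the next line, Metadcarc1511.3, by a log2 fold change of 1.34 (SE 0.23, edgeR adjusted p = 0.000198), in a comparison with 14.8% of genes called. Adcarc0846 was below the line above it, Adcarc1511.1 (-3.61, SE 0.32, edgeR adjusted p = 7.46e-08), where 16.1% of genes were called. TCC1509, TCC1506 and Metadcarc1511.3 overlapped with each other, and Metadcarc1511.2 overlapped with both TCC0840 and Adcarc1511.1.

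In tissues, HOXB13 was lower in PAC than in TCC. P2 had 0 counts, which allows up to 0.233 CPM, Ln4.2 had 2.64 CPM and Ln4.3 had 3.51 CPM. The TCC tissues had 20.7 CPM in P6.1, 18.2 CPM in B8 and 13.5 CPM in B7, and 12.7 CPM in the metastasis Ln6.2, 9.24 CPM in B10 and 4.92 CPM in B9. No PAC tissue reached the lowest TCC tissue, and the prostate tumor P6.1 had the highest level. Over dogs, PAC and TCC did not overlap, as for 25.8% of the 14412 genes tested (7.31% with PAC below). HOXB13 passed the count filter through TCC alone, and by organ through bladder alone, since P2 had 0 counts. Its fold changes and their p-values therefore depend on that 0. The exact two-sided permutation p was 0.0952, the smallest that 2 against 5 dogs can give, and the log2 fold change of -3.28 (SE 1.40, edgeR unadjusted p = 0.0458, adjusted p = 0.254) was not called. It was -2.34 without dog 2 (edgeR adjusted p = 0.596) and -10.73 without dog 4 (adjusted p = 0.0489), where P2 with 0 counts stood alone for PAC. An unadjusted p under 0.05 was given to 2709 genes. EPCAM was lowest in P2 and Ln6.2, and its part in the HOXB13 levels was not tested. Between organs the tissues overlapped, since P6.1 was above all bladder tissues and P2 below (log2 fold change -0.59, SE 1.34, edgeR adjusted p = 0.837).

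GOLM1 was the most abundant of the 5 genes by TPM in 10 of 17 samples, among them 6 of the 8 lines. Its level in lines was between 35.0 and 457 TPM, above that of 85.8% to 99.1% of all genes. Adcarc1511.1 had 391, 217 and 425 CPM, Metadcarc1511.2 had 309, 360 and 358 CPM, Adcarc0846 had 193 and 282 CPM, and Metadcarc1511.3 had 159, 197 and 161 CPM. TCC1509 had 34.8, 51.0 and 48.6 CPM, TCC0840 had 36.6 and 34.9 CPM, and TCC1506 had 29.1, 35.0 and 35.9 CPM. Adcarc1508, a PAC line, had 27.8, 24.5 and 21.3 CPM, the lowest of all. Hence 4 of the 5 PAC lines were above every TCC line, and the step between Metadcarc1511.3 and TCC1509 was a log2 fold change of 1.94 (SE 0.23, edgeR adjusted p = 1.57e-06; 22.2% of genes called).

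These 4 lines came from 2 dogs, and the comparison over dogs did not reach the threshold. PAC exceeded TCC by a log2 fold change of 2.21 (SE 0.80, edgeR unadjusted p = 0.0301, adjusted p = 0.999), and of 12835 genes tested 0.00% were called. The other markers tested lay between a log2 fold change of -4.60 for PSCA (SE 2.12, edgeR adjusted p = 0.999) and 0.38 for HOXB13 (SE 1.14, adjusted p = 0.999). With levels of 281, 235 and 24.7 CPM in the PAC dogs and 44.7, 35.7 and 33.3 CPM in the TCC dogs, the exact two-sided permutation p was 0.400, where 3 against 3 dogs cannot go below 0.1. None of the 5 genes had groups of lines without overlap, as against 8.91% of the genes tested (5.09% with PAC above and 3.83% with PAC below). Leaving out single dogs, the log2 fold change was between 1.74 (without dog 4) and 2.74 (without dog 3, the source of Adcarc1508), with no call by edgeR.

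In tissues, GOLM1 was at 98.3 CPM in Ln4.3, 78.8 CPM in Ln4.2 and 61.6 CPM in P2. The TCC tissues had 53.2 CPM in Ln6.2, 52.2 CPM in B8, 52.0 CPM in B9, 28.6 CPM in P6.1, 12.5 CPM in B7 and 9.55 CPM in B10. All PAC tissues were above all TCC tissues, with the least distance between P2 and Ln6.2. Over dogs, PAC was above TCC in all 10 pairs of dogs (exact two-sided permutation p = 0.0952, the smallest possible), an order that 18.5% of the genes tested shared. The log2 fold change was 1.07 (SE 0.67, edgeR adjusted p = 0.422). Without TMM scaling, P2 fell below B9 and the groups overlapped. The same tissues differed in fibroblast, muscle and leukocyte markers, given above, and the part of these cells in the GOLM1 and HOXB13 levels was not tested. By organ, prostate exceeded bladder in 10 of 12 pairs of dogs (log2 fold change 0.80, SE 0.68, edgeR adjusted p = 0.540).

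**Figure D1:**
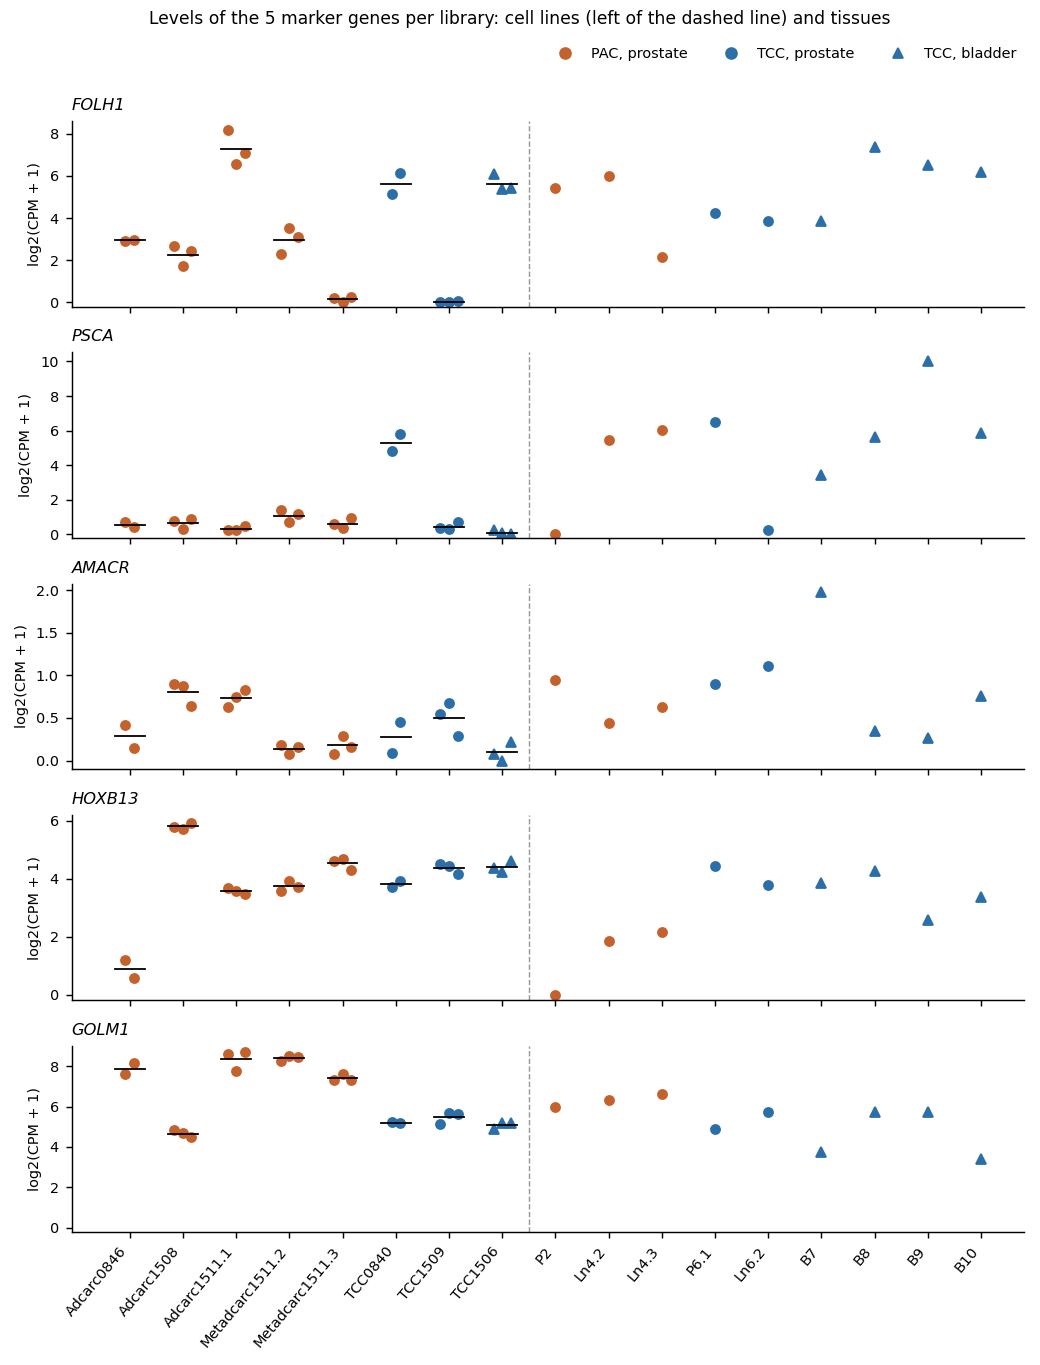
Level of each gene as log2(CPM + 1) in every library of the 8 cell lines (left of the dashed line) and in the 9 tissues, orange for PAC and blue for TCC, triangles for bladder, with the mean of a line's libraries as a bar. PSCA stood at 26.9 and 54.0 CPM in TCC0840 alone among lines, and GOLM1 was high in 4 of 5 PAC lines but not in Adcarc1508.

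Across the comparisons by origin, 15 in all for 5 genes, only HOXB13 and GOLM1 in tissues by histology had groups that did not overlap. Of all genes tested, 25.8% had no overlap in tissues by histology and 8.91% in lines by histology. By organ, the tissues of none of the 5 genes were without overlap, as against 17.8% of genes (10.9% with prostate above and 6.99% with prostate below). By edgeR no marker was called in the tissues by organ, where 0.00% of 13536 genes were called (2688 genes and 0 markers had an unadjusted p under 0.05, and DESeq2 called 841 genes and 0 markers). The tissues by histology also gave no called marker, with 0.0278% of genes called (HOXB13 had an unadjusted p under 0.05, and DESeq2 called 979 genes and 0 markers). In the cell lines by histology, 492 genes and 1 marker had an unadjusted p under 0.05, and DESeq2 called 53 genes and 0 markers. DESeq2 gave no adjusted p to PSCA in any comparison by origin, nor to FOLH1 in the lines by histology. These could therefore not be called by DESeq2, whatever their difference. Prostate lines against TCC1506, the only bladder line, had 0.245% of 14276 genes called (0.00700% higher and 0.238% lower) and no marker by edgeR or DESeq2, with 0 markers at an unadjusted p under 0.05. The largest value there was that of PSCA (log2 fold change 6.82, SE 4.58), which came from TCC0840 and was 2.79 without dog 5. PSCA passed the count filter there through the prostate lines alone, since TCC1506 had 4 counts.

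**Figure D2:**
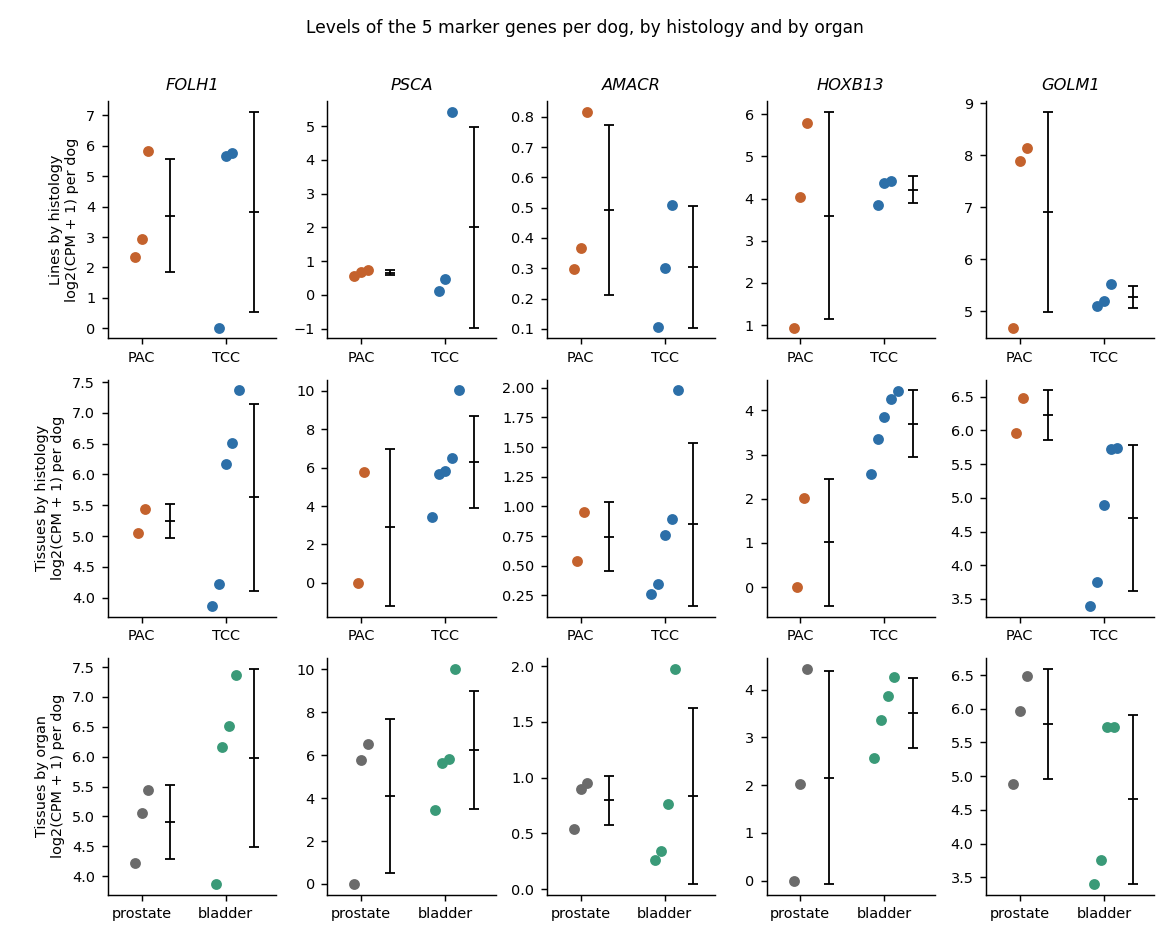
Level of each gene per dog as log2(CPM + 1), with the mean and SD as bars, for lines by histology (3 and 3 dogs), tissues by histology (2 and 5 dogs) and tissues by organ (3 and 4 dogs), on an axis of its own in each panel. Groups without overlap are seen for HOXB13 (lower in PAC) and GOLM1 (higher in PAC) in the tissues by histology. Of all genes tested there, 25.8% had no overlap.

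The sample numbers in the labels appear to form 2 series of libraries, a reading made after results were known, and the lines were compared by histology within each series. Adcarc0846, TCC0840 and replicates 1 and 2 of TCC1506 share a series with all tissues, and the other lines with replicate 3 of TCC1506 form the other. The mean of GOLM1 was higher in PAC in both, by 2.77 on the log2(CPM + 1) scale in the first (1 and 2 dogs) and by 1.05 in the other (2 and 2 dogs). In the other series the PAC dogs lay on opposite sides of TCC. Dog 4 had 281 CPM, while dog 3 had 24.7 CPM, below TCC1509 (44.7 CPM) and replicate 3 of TCC1506 (35.9 CPM). AMACR differed by 0.13 and 0.23. HOXB13 differed by -3.13 in the first series and 0.42 in the other, FOLH1 by -2.83 and 1.35, and PSCA by -2.22 and 0.47, so that for these 3 genes the sign was not the same in both. Apart from dog 7 the dogs differ between the series, so that dog and series cannot be told apart for them. TCC1506 of dog 7 had 29.1 and 35.0 CPM of GOLM1 in the first series and 35.9 CPM in the other, and 19.8 and 17.9 CPM against 23.3 CPM of HOXB13.

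All 5 genes differed among the 8 lines when libraries were the replicates (edgeR adjusted p from 2.40e-11 for GOLM1 to 0.00110 for AMACR), but so did 65.3% of the 13916 genes. Of 28 pairs of lines, FOLH1 was called in 22, GOLM1 in 17, HOXB13 in 13, PSCA in 9 and AMACR in 4. Over all these pairs 19.7% of the tests were called, between 1.88% and 29.6% by pair. The SD between lines on the log2(CPM + 1) scale was 2.64 for FOLH1 against 0.50 within lines, 1.70 against 0.33 for PSCA, 1.60 against 0.28 for GOLM1 and 1.40 against 0.22 for HOXB13. AMACR had 0.27 against 0.16. The spread among lines of FOLH1, PSCA, HOXB13 and GOLM1 was thus several times that among libraries of a line.

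The cell lines were then compared with the tissues from which they were derived, in 5 pairs from 4 dogs. RNA of lines and tissues was isolated with different kits. By the reading of sample numbers above, TCC1509, Metadcarc1511.2 and Metadcarc1511.3 were in another series than their tissues. For these pairs, kind of sample and series cannot be told apart. GOLM1 was higher in the line in every pair, by 3.82-fold in Adcarc0846 over P2, 4.37-fold in Metadcarc1511.2 over Ln4.2, 1.76-fold in Metadcarc1511.3 over Ln4.3, 1.56-fold in TCC1509 over P6.1 and 2.65-fold in TCC1506 over B7. Over dogs its log2 fold change was 1.32 (SE 0.30, edgeR unadjusted p = 0.00564, adjusted p = 0.130), which was not called by edgeR but was by DESeq2 (adjusted p = 0.00229). Of the 12985 genes tested, edgeR called 0.416% and DESeq2 called 1411 genes, and 13.7% were higher in all 5 lines.

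HOXB13 had higher levels in the 3 PAC lines than in their tissues, and the TCC pairs lay closer together. Adcarc0846, with 36 counts, was at least 3.95-fold above the floor of P2, where the gene had 0 counts (lower 95% counting limit of the ratio 3.05), and Metadcarc1511.2 and Metadcarc1511.3 were 4.70-fold and 6.32-fold above Ln4.2 and Ln4.3. TCC1506 was 1.52-fold above B7, and TCC1509 was 1.05-fold below P6.1, where the counting interval of the ratio, 0.847 to 1.08, held 1. The difference between the effects in PAC and TCC was 3.00 on the log2 scale (SE 1.31, edgeR unadjusted p = 0.0770, adjusted p = 0.885) and was not called, as for 0.00% of genes (714 had an unadjusted p under 0.05, and DESeq2 called 236 genes and 0 markers). The pooled effect was also not called (log2 fold change 1.54, SE 0.92, edgeR adjusted p = 0.415). In both fits HOXB13 passed the count filter through the lines alone, since P2 had 0 counts.

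PSCA was lower in 4 of the 5 lines, by 37.0-fold in Metadcarc1511.2, 117-fold in Metadcarc1511.3, 237-fold in TCC1509 and 129-fold in TCC1506. The exception was Adcarc0846, with 19 counts, at least 2.09-fold above the floor of P2, which had 0 counts (lower 95% counting limit of the ratio 1.54). PSCA did not pass the count filter in this comparison, since P2 had 0 counts and TCC1506 had 4. Without the filter its log2 fold change was -5.63 (SE 2.25, edgeR adjusted p = 0.283), without dog 2 it was -6.96 (SE 0.62, adjusted p = 0.0627) and without dog 7 it was -5.21 (SE 3.27, adjusted p = 0.368).

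FOLH1 was lower in 4 of the 5 lines, and the exception was another pair. Adcarc0846 was 6.35-fold, Metadcarc1511.2 8.26-fold and Metadcarc1511.3 29.9-fold below the tissue. TCC1509 had 1 count against 308 in P6.1, a ratio whose counting interval reached from 2.73e-05 to 0.00608. TCC1506 was 3.67-fold above B7. FOLH1 passed the count filter through the tissues alone, because of the 1 count in TCC1509. The pooled level was 7.97-fold lower in lines, with a 95% interval of the log2 fold change from -7.90 to 1.91 (edgeR adjusted p = 0.446). The log2 fold change was -4.28 without dog 7 (edgeR adjusted p = 0.194) and -1.67 without dog 6 (adjusted p = 0.665). AMACR was lower in all 5 lines, by 2.04-fold to 38.3-fold, as were 5.43% of genes by at least 2-fold. For Metadcarc1511.2 and TCC1509 the counting interval of the ratio held 1. AMACR passed the count filter through the tissues alone, since Adcarc0846 had 9 counts and TCC1506 had 4, so that its fold rests on few counts. Its pooled log2 fold change was -2.48 (SE 0.78, edgeR unadjusted p = 0.0219, adjusted p = 0.214), and -1.65 without dog 7.

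**Figure D3:**
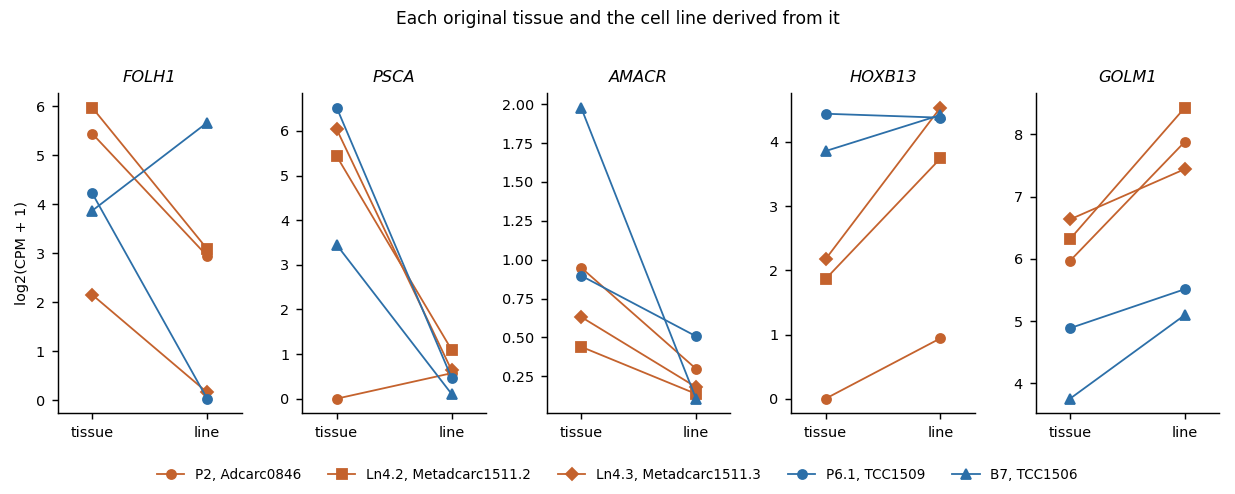
Level of each gene as log2(CPM + 1) in 5 original tissues and in the cell line derived from each, orange for PAC and blue for TCC, on an axis of its own in each panel. GOLM1 was higher in the line in all 5 pairs, by 1.56-fold to 4.37-fold, while FOLH1 was higher in the line for B7 and TCC1506 only.

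The order of levels within a sample, taken by TPM, also differed between samples. GOLM1 led in P2, Ln4.2, Ln4.3 and Ln6.2. PSCA led in P6.1 with 70.0 TPM, in B9 with 912 TPM and in B10 with 42.6 TPM. FOLH1 led in B8 with 85.1 TPM, and HOXB13 led in B7 with 31.5 TPM, in TCC1506 with 43.7 TPM and in Adcarc1508 with 127 TPM. In TCC1506 GOLM1 was close behind with 43.3 TPM, and it led in replicate 2 of that line. AMACR was the lowest of the 5 in 10 of 17 samples, PSCA in 5 (in P2 together with HOXB13, both at 0) and FOLH1 in 2.

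**Figure D4:**
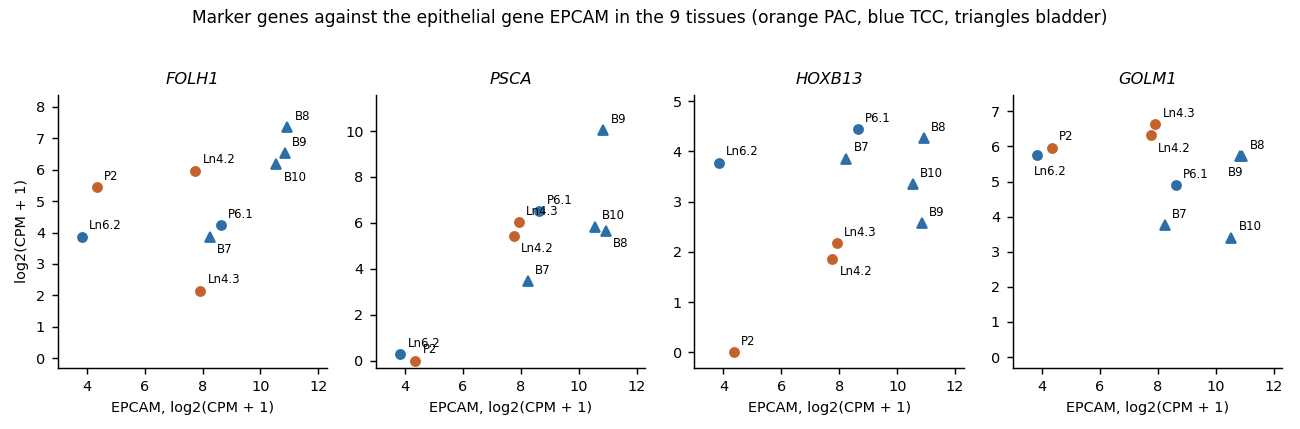
Level of 4 of the genes as log2(CPM + 1) against that of the epithelial gene EPCAM in the 9 tissues, orange for PAC, blue for TCC and triangles for bladder. PSCA was at 0 and 3 counts in P2 and Ln6.2, the tissues with the least EPCAM (19.5 and 13.3 CPM), while HOXB13 was at 12.7 CPM in Ln6.2.

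The 5 genes did not vary together. Over the 17 samples, Pearson's r of log2(CPM + 1) between 2 of them was between -0.49 (AMACR and GOLM1) and 0.40 (FOLH1 and PSCA). The samples share dogs, and lines and tissues differ as groups, so these values are descriptions. Among 1084 genes with a symbol and at least 1 CPM in 3 samples, those most like GOLM1 were ATP10A (r = 0.87), ZBTB25 (0.77) and SIN3A (0.76), and those most like PSCA were TMPRSS2 (0.84), CHRNB4 (0.84) and PTPRN2 (0.82). TMPRSS2, a membrane-bound serine protease of luminal epithelia, had an r of 0.90 with PSCA over the 9 tissues and 0.65 over the 8 lines. Like PSCA, it was highest in B9 (1834 CPM) and, among lines, in TCC0840 (179 CPM). HOXB13 was most like MREG (0.72), CLCC1 (0.69) and MRPS27 (0.64). For FOLH1 the leading genes were FBLN5 (0.67), KIAA1191 (0.66) and UBL4A (0.65), and for AMACR they were RPP38 (0.72), WDR70 (0.71) and TCTN1 (0.70).

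Of the other 17 genes on the study's list of hormonal and prostate genes, 14 were found in the files. One of them, TP63, a transcription factor of basal epithelium, was called in TCC1506 against the prostate lines. It was at 319 CPM in TCC1506 and at most 0.116 CPM, from 4 counts, in the 7 prostate lines. TP63 passed the count filter through TCC1506 alone, so that the call and its fold rest on prostate counts near 0. The bladder side is 1 dog with 1 line, whose spread is assumed to be that of the prostate dogs, and without dog 2, 3, 4 or 5 edgeR called 0 genes of all in this comparison. No other gene of the list was called in the lines by histology (5 tested), the tissues by histology (6 tested), the tissues by organ (6 tested) or the lines against tissues (5 tested). Among lines, with libraries as replicates, 6 of 8 tested genes of the list were called, as were 65.3% of all 13916 genes. ESR1, PGR, HNF4G, TP63 and GSTP1 were among them. In tissues TP63 was between 10.4 and 170 CPM in the bladder, at 42.3 CPM in P6.1 and between 0.233 and 0.687 CPM in P2, Ln4.2, Ln4.3 and Ln6.2. It was not called by histology (log2 fold change -7.45, SE 1.42, edgeR adjusted p = 0.0355) or by organ (-2.30, SE 1.68, adjusted p = 0.474). In both, TP63 passed the count filter through the TCC or bladder side alone, since P2 had 3 counts.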

How the data were processed

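The submitters' processing notes name Trimmomatic 0.36 for trimming, STAR 2.5.3 for alignment and RSEM 1.3.0 for quantification, with the build CanFam3.1. The sequencing used single reads, and genes carry Ensembl identifiers. The authors deposited 124 tables, 1 per lane, of expected counts, which had no normalization, of TPM, and of other columns such as the effective length. Whether strand was used in counting is not given in the sources used here, so that overlapping antisense genes cannot be told apart. The 4 lanes of each library were added up, then the libraries of a line and the lines or tissues of a dog, with rounding to integers before the tests (17.4% of deposited values above 0 were not whole). TPM were recomputed from the summed expected counts and the deposited effective lengths. For 3 lanes of one Adcarc0846 library the label of the line rises by lane, and their titles decided the assignment.

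The 5 genes, the other lists and the tests were chosen with earlier results of these data known. Identifiers of the 5 genes come from the study's gene list, and symbols of 1120 of 32183 identifiers from its supplementary material, which is a selection of genes. The named genes are the 5 markers, called genes of the study's list, and, for each marker, the 3 genes with a symbol and the highest Pearson correlation over 17 samples. Genes named for their cell type come from marker lists, and some genes of these lists are not reported here.

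Groups were tested over dogs with edgeR 4.0.16 in R 4.3.3 (TMM, quasi-likelihood F test, Benjamini-Hochberg adjustment over all genes tested), for genes with at least 10 counts in every sample of a side. A gene could pass this filter through 1 side alone, when a sample of the other side had fewer counts. Ln6.2 entered the tests only in an alternative. Lines were compared with tissues with the dog as a covariate. Lines were compared with each other over libraries. Levels per dog were compared with exact two-sided permutation tests of the mean log2(CPM + 1), with the pseudocount 1 (scipy 1.17.1, Python 3.11.15, pandas 2.3.3, numpy 2.4.6, matplotlib 3.10.9). The SE is the log2 fold change over the root of F, and its interval uses the degrees of freedom of the fit. The interval of a ratio of 2 samples is the exact 95% binomial interval, and folds against 0 counts use the floor of 3 counts per sample. The fits were tested on simulated data. Alternatives were DESeq2 1.42.0, size factors, count filters, thresholds, units of replication, TPM, the pseudocount 0.1, and leaving out dogs or replicates.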

Additional observations from a re-analysis of the deposited data

Results flagged for a closer look

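In each of 15 groups of 4 or 5 samples, the highest and the lowest sample were set against the others, on CPM without logs. For normally distributed values, chance alone marks about 1 in 20 groups. CPM levels are skewed, so that this rate need not hold here and the marks are descriptions. FOLH1 in Adcarc1511.1, at 169 CPM over its pooled libraries, stood far above the other 4 PAC lines. PSCA in B9, at 1045 CPM, stood far above the other primary TCC tissues and above the other bladder tissues, which are among them. AMACR in B7, at 2.94 CPM from 48 counts, stood far above the other primary TCC tissues.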

How the results depend on the processing

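The number of markers called changed with 3 kinds of alternative. DESeq2 called 1 marker, GOLM1, in lines against tissues, and fits on libraries called it between PAC and TCC lines. Of 15 comparisons of levels, 2 were without overlap (both in tissues by histology, where 25.8% of genes were), and 1 (HOXB13) without TMM scaling. Leaving out each dog, chosen after seeing the data for the comparisons of levels, gave between 2 and 4, the most without dog 6, the only dog with prostate TCC tissue, when organ and histology divide the tissues alike and HOXB13 and GOLM1 count in both. Among lines, 4 of 5 markers were called without any 1 replicate number, the exception being AMACR (edgeR adjusted p between 0.0121 and 0.0253).

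Replicate numbers do not mark a shared animal. Deviations of same-numbered libraries of different lines correlated between -0.10 and 0.85 (median 0.25), and 15 of 18 libraries correlated best with one of their own number, a hint from the data only. With libraries as samples and the replicate number as a block, GOLM1 was called between PAC and TCC lines (2.54, edgeR adjusted p = 0.00259; 1 marker and 317 genes), and without the block, chosen after seeing the data, as well (adjusted p = 0.00128; 1 marker and 379 genes). Both count libraries of a dog as independent, so that p is too small.

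Log2 fold changes that reversed were uncalled, and the cause was not tested. When each dog was left out, the range in lines by histology was -5.18 to 1.32 for PSCA (reversed without dog 5) and -1.16 to 0.94 for HOXB13 (dog 3). In tissues it was -1.37 to 0.21 for AMACR by histology (dog 7), and by organ -0.92 to 0.84 for AMACR (dog 7) and -3.60 to 0.26 for PSCA (dog 9). In prostate against bladder lines HOXB13 ranged from -0.70 (dog 3) to 0.36 without a dog or replicate, -0.04 without replicate 2, and was -0.06 with each line as its own sample. Differences of mean log2(CPM + 1) reversed with the pseudocount 0.1 for FOLH1 in lines (0.77) and AMACR by organ (0.19). Without single dogs they ranged in lines from -2.01 to 0.85 for FOLH1 (reversed without dog 2, 3, 5 or 7), -2.28 to 0.37 for PSCA (dog 5) and -1.72 to 0.70 for HOXB13 (dog 2). In tissues they ranged from -0.82 to 0.05 for FOLH1 by histology (dog 8), -0.31 to 0.18 for AMACR by histology and -0.23 to 0.34 by organ (dog 4 or 7 in both). With every tissue its own sample, the exact permutation p of HOXB13 and GOLM1 by histology was 0.0357, with both tissues of dog 4 counted.

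DESeq2 called 53, 979, 841, 385, 1411 and 236 genes against 0, 4, 0, 35, 54 and 0 by edgeR, for lines by histology, tissues by histology, tissues by organ, lines by organ, lines against tissues, and their difference by histology. Tissues by histology, lines by organ and lines against tissues gave 472, 198 and 177 genes at an adjusted p of 0.05 without a fold, and 0, 191 and 171 with each line or tissue as its own sample. With Ln6.2 as a further TCC sample, tissues by histology gave 0 (HOXB13 -3.19, edgeR adjusted p = 0.460). Without a filter the first gave 116 and the last 92, and without a dog they gave at most 1, 1 and 0. Among lines 9088 genes were called, and 4078 without replicate 2.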
